A study of Homo sapiens with 27 samples.

Results

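The cytochrome P450, UDP-glucuronosyltransferase, aldehyde dehydrogenase, aldo-keto reductase, sulfotransferase and flavin monooxygenase genes were followed in 3 human cancer cell lines given a MET kinase inhibitor. Members were taken by symbol: CYP genes other than CYP51A1, families UGT1 to UGT3, ALDH, AKR1 and AKR7, SULT and FMO, from probe sets annotated to 1 gene, keeping for each gene the probe set with the highest mean over the 27 arrays. This gave 105 of the 18132 genes on the table, from 239 probe sets. Of these, 58 were bright enough to be tested, among 12386 genes tested in all, and 47 were not. All 105 matched a RefSeq gene, 100 of them protein-coding, 4 transcribed pseudogenes and 1 a long non-coding RNA.

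The design text calls EBC-1 (a lung line, labelled non-small cell) and MKN-45 (labelled as gastric cancer) MET addicted. Its negative control was HCC827, a further non-small cell lung line in which c-Met is activated without being needed. Each line received DMSO or the selective MET kinase inhibitor SGX-523, given at 1 uM over 24 h or 48 h, with 3 arrays a group, which the labels call biological replicates. How long DMSO was applied is not in the labels, and the 24 h and 48 h comparisons of a line share its DMSO arrays. Each established line thus stands for 1 tumour, and the data hold 1 dose of 1 compound. RNA per cell and the number of cells that hold a transcript cannot be told apart in such bulk samples.

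These families carry out much of the chemistry by which cells alter lipophilic molecules. P450s and flavin monooxygenases insert oxygen, aldo-keto reductases and aldehyde dehydrogenases move carbonyl groups between alcohol, aldehyde and acid, and glucuronosyltransferases and sulfotransferases attach polar groups that favour export. The same chemistry controls signalling molecules: ALDH1A enzymes make retinoic acid and CYP26 enzymes clear it, while other members act on bile acids, steroids, vitamin D and eicosanoids. Most are best known in liver and gut, and several are induced through ligand-activated receptors, CYP1A1 and CYP1B1 through the aryl hydrocarbon receptor AHR and CYP3A genes through nuclear receptors.

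The 250 bases before the RefSeq start site (assembly GRCh38.p14) are printed for 4 members that the results turn on, 5′ to 3′ on the gene's strand. UGT2B15 (chr4:68670653-68670902, minus strand) rose most of all members, and CYP1A1 (chr15:74725529-74725778, minus strand) is the textbook AHR target. Capitals mark motif matches on either strand. In UGT2B15 they mark the forkhead FOXO motif, whose letters are GTAAACA, and the core hexamer of nuclear receptor motifs, searched as AGGTCA. In CYP1A1 they mark the core that AHR binds, written GCGTG, and the box near many start sites, spelled TATAAA.
UGT2B15: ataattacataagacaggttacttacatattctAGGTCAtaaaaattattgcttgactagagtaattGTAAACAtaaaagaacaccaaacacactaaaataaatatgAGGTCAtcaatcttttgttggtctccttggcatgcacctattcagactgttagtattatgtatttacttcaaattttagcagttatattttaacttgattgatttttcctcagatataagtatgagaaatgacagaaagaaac
CYP1A1: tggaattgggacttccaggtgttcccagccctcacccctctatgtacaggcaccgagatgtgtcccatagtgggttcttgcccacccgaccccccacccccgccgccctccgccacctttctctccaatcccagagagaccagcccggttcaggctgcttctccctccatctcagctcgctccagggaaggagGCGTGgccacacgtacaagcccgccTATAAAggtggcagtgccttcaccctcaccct
AKR1C1 (chr10:4963165-4963414, plus strand) and AKR1C2 (chr10:5003858-5004107, minus strand) are shown because they are neighbours of near-identical sequence that moved together in EBC-1. Capitals in AKR1C1 mark the 4 bases that the alignment set against a gap in AKR1C2. The printed AKR1C2 sequence holds the same letters after the same bases, so the capitals mark the place of the gap and not absent letters.
AKR1C1: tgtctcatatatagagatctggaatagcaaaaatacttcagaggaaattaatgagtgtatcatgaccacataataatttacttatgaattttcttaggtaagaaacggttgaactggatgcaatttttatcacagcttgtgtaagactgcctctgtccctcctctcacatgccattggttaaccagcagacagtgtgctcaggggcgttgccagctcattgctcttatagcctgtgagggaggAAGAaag
AKR1C2: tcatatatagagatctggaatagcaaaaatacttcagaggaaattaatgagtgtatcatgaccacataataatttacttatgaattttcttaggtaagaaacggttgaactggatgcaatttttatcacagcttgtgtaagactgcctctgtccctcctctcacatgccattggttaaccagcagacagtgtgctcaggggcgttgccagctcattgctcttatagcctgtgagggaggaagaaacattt

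Over the whole 300-base windows, which run a little past the start, AKR1C1 and AKR1C2 were identical at 288 of 296 aligned columns (97.3%), against 75.7% for AKR1C1 with AKR1C3 and 62.7% with AKR1C4. In UGT2B15 the FOXO match lay at position -183 from the start, and the nuclear receptor hexamers at -217 and -143. In CYP1A1 the AHR core lay at -57. Of 35116 such windows 36.5% held the AHR core, 3.42% the FOXO motif, 13.8% the hexamer and 11.5% the TATA-type box. Among the 44 tested members with a window, 13 held the AHR core (29.5%). The FOXO motif was in 2 of them (UGT2B15 and CYP4F3), the hexamer in 5 and the box in 8. The core of the antioxidant element through which NRF2 acts, TGACNNNGC, was in 4 of the 44 against 13.3% of all windows. The AP-1 motif, searched as TGANTCA, was in 2 against 7.71%. The E-box, searched as CACGTG, was in 3 against 7.26%. The matches shown did not overlap each other. A match describes the letters and says nothing of binding.

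The values are the log2 signals deposited for each probe set, with array medians between 5.02 and 5.73. Genes were compared with limma in 1 fit over the 9 groups, and a gene was called when its p adjusted over the 12386 genes was under 0.05. Differences below are on the log2 scale with their standard error (SE), each from 3 against 3 arrays. The HCC827 arrays shared few exact values with those of the other lines (a median of 163 per pair of arrays, against 1056 among EBC-1 and MKN-45 arrays and 1027.5 within HCC827), so levels of HCC827 are not set against those of the other lines. The third HCC827 array of 24 h stood apart, with a correlation down to 0.9663 to its group against at least 0.9958 in the other groups. All groups share the estimate of spread, so member counts are also given without it. EPCAM, KRT8, KRT18 and KRT19 were above the array median on every array, and CDH1 was not in EBC-1. Of the gastric and intestinal markers, CDX2, TFF1 and VIL1 were above it in MKN-45 and CLDN18 and GKN1 were not, while CDX2 and VIL1 were also above it in EBC-1. The fibroblast marker LUM was above it on all EBC-1 arrays. None of the 3 squamous markers on the table was above it in EBC-1. The lung markers NKX2-1, NAPSA and SFTPC were above it on all 27 arrays, those of the gastric line included. Of the other lung markers, SCGB1A1 was above it on no array and SFTPB on some arrays of each line. For the lung markers, being above the median therefore did not separate the lines. Relative to the medians of its own arrays, NAPSA stood higher in HCC827 (DMSO mean 9.36) than in EBC-1 (5.795) or MKN-45 (5.92).

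In EBC-1 more of these enzymes rose than fell. Of the 58 tested, 26 were called higher and 4 lower at 24 h, beside 31.2% and 28.1% of all genes, and 25 were higher and 6 lower at 48 h, beside 32.8% and 28.9%. In MKN-45, 18 were higher and 12 lower at 24 h (33.4% and 26.9% of all genes), and 17 higher and 15 lower at 48 h (36.4% and 26.2%). HCC827 had 1 higher and 0 lower at 24 h (0.0323% and 0% of all genes), where 9 members had an unadjusted p under 0.05, and 13 higher and 1 lower at 48 h (11.6% and 10.7%). As shares of the 58, the EBC-1 members called higher came to 44.8% and 43.1%, above those of all genes, and those called lower to 6.9% and 10.3%, below them. The MKN-45 shares, 31% and 29.3% higher and 20.7% and 25.9% lower, were at or below those of all genes. In HCC827 at 48 h the shares were 22.4% higher and 1.72% lower. The HCC827 count at 24 h became 10 (6 higher and 4 lower, which is 10.3% and 6.9% of the 58) without either the first or the second 24 h array, beside 6.14% and 13.2% of all genes without the first and 6.64% and 14.9% without the second.

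Some changes were large, although in EBC-1 and MKN-45 the median size of change was below that of all genes. Without regard to sign, the median member difference was 0.285 at 24 h and 0.304 at 48 h in EBC-1 (0.347 and 0.373 for all genes). It was 0.242 and 0.348 in MKN-45 (0.352 and 0.372), and 0.136 and 0.189 in HCC827 (0.126 and 0.142). Members called with at least a 2-fold change numbered 17 in EBC-1 at 24 h (29.3%, beside 15.9% of all genes) and 20 at 48 h (34.5%, beside 17.2%). The same counts in MKN-45 were 13 at 24 h (22.4%, beside 15.3%) and 14 at 48 h (24.1%, beside 17.3%), and in HCC827 0 at 24 h (0% of all genes) and 2 at 48 h (3.45%, beside 0.638%). With its sign, the median member difference at 48 h was 0.205 in EBC-1 beside 0.0667 for all genes, and -0.0213 beside 0.056 in MKN-45. Without the HCC827 array that stood apart, members higher and lower were 26 and 6 at 24 h and 25 and 8 at 48 h in EBC-1, 19 and 12 then 18 and 19 in MKN-45, and 1 and 0 then 18 and 2 in HCC827. The shares of all genes in that fit were 35.9% higher and 31.8% lower, then 37.7% and 32.4%, in EBC-1. They were 38% and 30.3%, then 40.7% and 29.9%, in MKN-45, and 0.145% and 0.0161%, then 18.5% and 19%, in HCC827. The heat map of all tested members shows these differences by role.

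**Figure D1:**
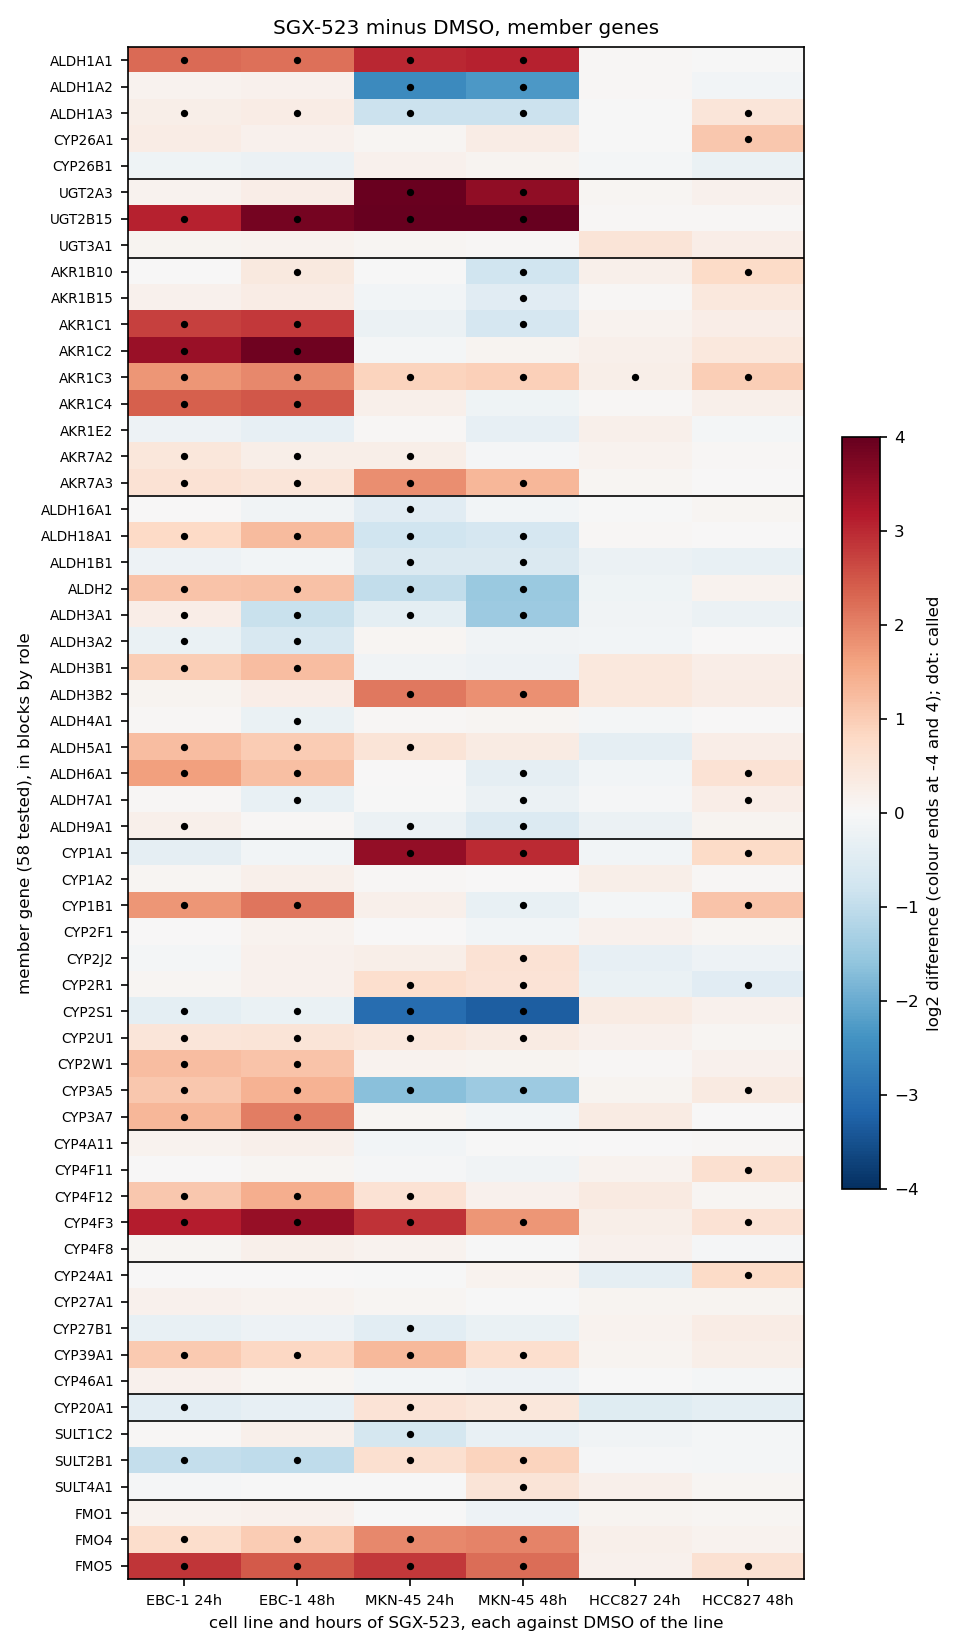
Log2 difference between SGX-523 and DMSO for the 58 tested members (rows, in blocks by role) in 3 cell lines at 24 h and 48 h (columns), with a dot where the gene was called. UGT2B15, ALDH1A1, CYP4F3, FMO4 and FMO5 are dotted red in both EBC-1 and MKN-45, AKR1C1 and AKR1C2 are deep red in EBC-1, and CYP1A1 is in MKN-45.

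Among the 6 retinoic acid enzymes, of which 5 were tested, ALDH1A1 rose in both MET-addicted lines while the other 2 ALDH1A genes fell in MKN-45. ALDH1A1, which oxidises retinal to retinoic acid, read 9.94, 9.95 and 9.97 on the EBC-1 DMSO arrays, 11.98, 12.31 and 12.34 at 24 h and 11.99, 12.23 and 12.23 at 48 h. In MKN-45 it read 8.03, 8.01 and 8.08 in DMSO, 11.08, 11.08 and 11.01 at 24 h and 11.15, 11.12 and 11.11 at 48 h. No treated array overlapped a DMSO array in either line. The rise at 48 h was 2.19 ± 0.09 in EBC-1 (adjusted p 2.16e-16) and 3.09 ± 0.09 in MKN-45 (adjusted p 3.03e-19), and its 3 probe sets gave 2.19 to 2.38 and 3.02 to 3.11. HCC827 read 4.43, 4.65 and 4.66 in DMSO and 4.75, 4.43 and 4.49 at 48 h, and these overlapped.

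ALDH1A2, another retinal dehydrogenase, went the other way in MKN-45. It read 6.16, 5.54 and 5.83 in DMSO, 3.29, 3.73 and 2.88 at 24 h and 3.58, 3.503 and 3.54 at 48 h, so all treated arrays were lower. The difference was -2.55 ± 0.16 at 24 h and -2.31 ± 0.16 at 48 h, with adjusted p of 4.69e-13 and 2.65e-12. EBC-1 arrays lay between 2.37 and 2.66, well under the array median. ALDH1A2 reached that median on 3 arrays, those of MKN-45 DMSO, so it passed the filter only through the group where it was high. ALDH1A3, the third enzyme of this step, changed by 0.30 ± 0.08 in EBC-1, -0.87 ± 0.08 in MKN-45 and 0.49 ± 0.08 in HCC827 at 48 h, all 3 called. Its 4 probe sets differed, from -0.01 to 0.30 in EBC-1 at 48 h, and with their mean the EBC-1, HCC827 48 h and MKN-45 24 h calls ended (adjusted p 0.656, 0.175 and 0.0713; 0.983 for EBC-1 at 24 h).

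CYP26A1, which hydroxylates retinoic acid and is itself induced by it, was called in HCC827 at 48 h and in no other comparison with DMSO. It read 7.11, 7.32 and 6.79 in HCC827 DMSO, 7.43, 7.38 and 6.42 at 24 h and 8.13, 8.26 and 8.04 at 48 h. Every 48 h array was above every DMSO array, by 1.07 ± 0.24 (adjusted p 0.00196), while the lowest array at 24 h is the one that stood apart. The EBC-1 arrays lay between 3.23 and 4.09 and those of MKN-45 between 3.23 and 4.09. CYP26B1 was called in none of the 6 comparisons with DMSO, with differences between -0.28 and 0.17, and CYP26C1 was too dim to test.

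**Figure D2:**
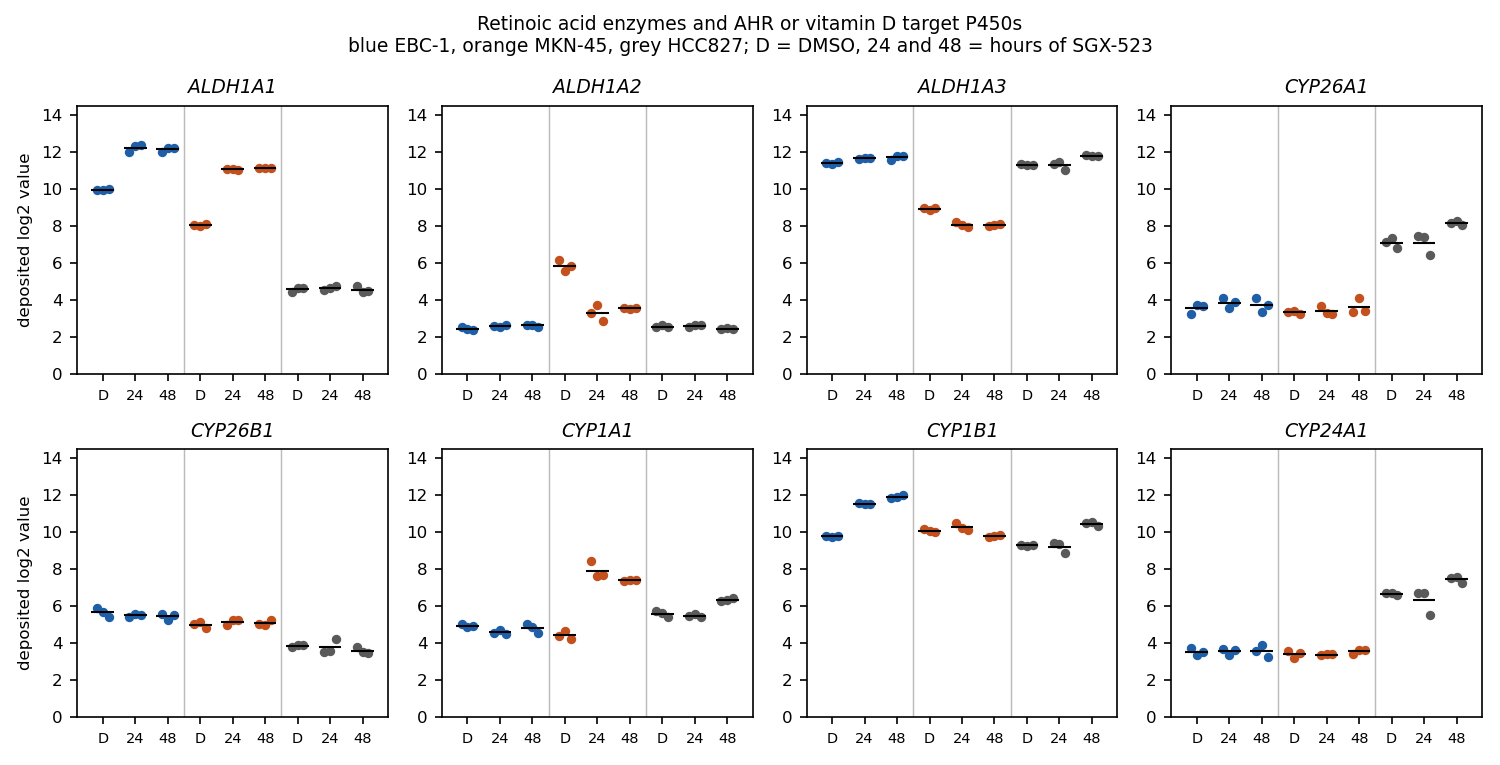
Deposited log2 value (vertical axis) on each array for the retinoic acid enzymes and for CYP1A1, CYP1B1 and CYP24A1, with a line at each mean of 3 arrays. ALDH1A1 is higher on all treated EBC-1 and MKN-45 arrays, ALDH1A2 is lower and CYP1A1 higher on treated MKN-45 arrays, and CYP26A1, CYP1B1 and CYP24A1 are higher in HCC827 at 48 h.

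Of the 9 glucuronosyltransferases, 3 were tested: UGT2B15, UGT2A3 and UGT3A1. UGT2B15, which conjugates androgens and drugs, showed the largest rise of any member. It read 3.64, 3.75 and 3.88 in EBC-1 DMSO, 6.59, 6.76 and 7.15 at 24 h and 7.55, 7.64 and 7.56 at 48 h. In MKN-45 it read 4.96, 5.02 and 4.95 in DMSO, 10.83, 10.85 and 10.78 at 24 h and 10.78, 10.77 and 10.70 at 48 h. The treated arrays of both lines were far above their DMSO arrays, which lay below the array median. UGT2B15 reached that median on 12 arrays, the treated ones of these lines, so it passed the filter only through the groups where it was high. The differences at 48 h were 3.83 ± 0.12 (adjusted p 3.17e-19) and 5.77 ± 0.12 (adjusted p 1.24e-22), and all 3 of its probe sets were called higher, by 3.40 to 4.74 and 5.16 to 5.77. HCC827 stayed between 3.04 and 3.48 over its 9 arrays, and it differed from DMSO there by 0.04 ± 0.12 at 48 h.

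UGT2A3, a glucuronosyltransferase of gut and liver, rose in MKN-45. It read 4.10, 3.996 and 4.32 in DMSO, 8.18, 8.15 and 7.91 at 24 h and 7.69, 7.69 and 7.64 at 48 h, with no overlap. The DMSO arrays lay below the array median. UGT2A3 reached that median on 6 arrays, the treated MKN-45 ones, so it passed the filter only through the groups where it was high. The rise was 3.94 ± 0.14 and then 3.54 ± 0.14 (adjusted p 1.04e-16), over 3 probe sets that gave 2.07 to 4.62 at 48 h. In EBC-1 the difference was 0.26 ± 0.14 at 48 h (adjusted p 0.125). UGT3A1 was called nowhere.

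Of the 9 aldo-keto reductases tested, 6 rose and 0 fell in EBC-1 at 24 h and 7 rose and 0 fell at 48 h. In MKN-45, 3 rose and 0 fell at 24 h, and 2 rose and 3 fell at 48 h. Of all genes, 31.2% rose and 28.1% fell in EBC-1 at 24 h, and 32.8% and 28.9% at 48 h. The MKN-45 shares were 33.4% and 26.9%, then 36.4% and 26.2%. The AKR1C genes reduce steroids, prostaglandins and xenobiotic ketones. AKR1C1 read 8.16, 8.07 and 7.999 in EBC-1 DMSO, 10.63, 10.90 and 10.87 at 24 h and 10.92, 10.92 and 10.89 at 48 h, a rise of 2.83 ± 0.14 (adjusted p 3.24e-15). In MKN-45 it read 9.19, 9.14 and 9.21 in DMSO and 8.55, 8.57 and 8.39 at 48 h, a fall of 0.67 ± 0.14 (adjusted p 0.000134). The 2 lines thus moved in opposite directions with no overlap in either.

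AKR1C2 read 8.90, 8.86 and 8.71 in EBC-1 DMSO, 12.22, 12.24 and 12.36 at 24 h and 12.66, 12.73 and 12.76 at 48 h, so the rise of 3.90 ± 0.24 (adjusted p 2.8e-13) was the largest in EBC-1 at that time. Its other probe set gave 1.29. In MKN-45 it read 5.03, 5.14 and 4.96 in DMSO and 5.34, 5.78 and 4.31 at 48 h, which overlapped. AKR1C4, chiefly a liver enzyme, rose at 48 h by 2.47 ± 0.17 in EBC-1 (adjusted p 2.01e-12), and in MKN-45 the difference was -0.17 ± 0.17 (adjusted p 0.408). Probe sets of such near-identical genes can share signal, and how much they did was not tested.

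AKR1C3, a 17-ketosteroid and prostaglandin reductase, was 1 of 3 members called higher in all 3 lines at 48 h, with CYP4F3 and FMO5. It read 11.44, 11.45 and 11.41 in EBC-1 DMSO and 13.33, 13.37 and 13.37 at 48 h. The MKN-45 arrays read 11.29, 11.27 and 11.24 in DMSO and 12.19, 12.27 and 12.17 at 48 h, and those of HCC827 8.999, 9.06 and 8.98 in DMSO, 9.25, 9.20 and 9.32 at 24 h and 10.02, 10.12 and 9.89 at 48 h. No treated array overlapped DMSO in any line. The rises at 48 h were 1.93 ± 0.04, 0.94 ± 0.04 and 1.00 ± 0.04 (adjusted p 1.64e-21, 2.61e-15 and 8.95e-14). The HCC827 rise at 24 h, 0.24 ± 0.04, was the only member called there (adjusted p 0.0454), and 9 of 16 alternatives lost it (adjusted p 0.0168 to 0.627).

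AKR1B10, a reductase of retinal and lipid aldehydes, was called at 48 h in each line. Its EBC-1 arrays lay between 3.39 and 4.20, all below the array median, so the EBC-1 difference is between signals near the floor and the gene passed the filter through the other lines. It changed by 0.41 ± 0.13 in EBC-1, -0.81 ± 0.13 in MKN-45 and 0.78 ± 0.13 in HCC827 (adjusted p 0.00938, 7.84e-06 and 0.000108). The EBC-1 call ended without the third DMSO array (0.30, adjusted p 0.0737) and with a constant of 64 added on the linear scale. AKR7A3, which reduces aflatoxin dialdehyde, rose by 0.50 ± 0.11 in EBC-1 and 1.34 ± 0.11 in MKN-45 at 48 h (adjusted p 0.000515 and 1.95e-10). AKR7A2, its relative that reduces succinic semialdehyde, rose by 0.24 ± 0.07 in EBC-1 at 48 h, and AKR1B15, a close relative of AKR1B10, fell in MKN-45 at 48 h by 0.44 ± 0.16 (adjusted p 0.0218).

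**Figure D3:**
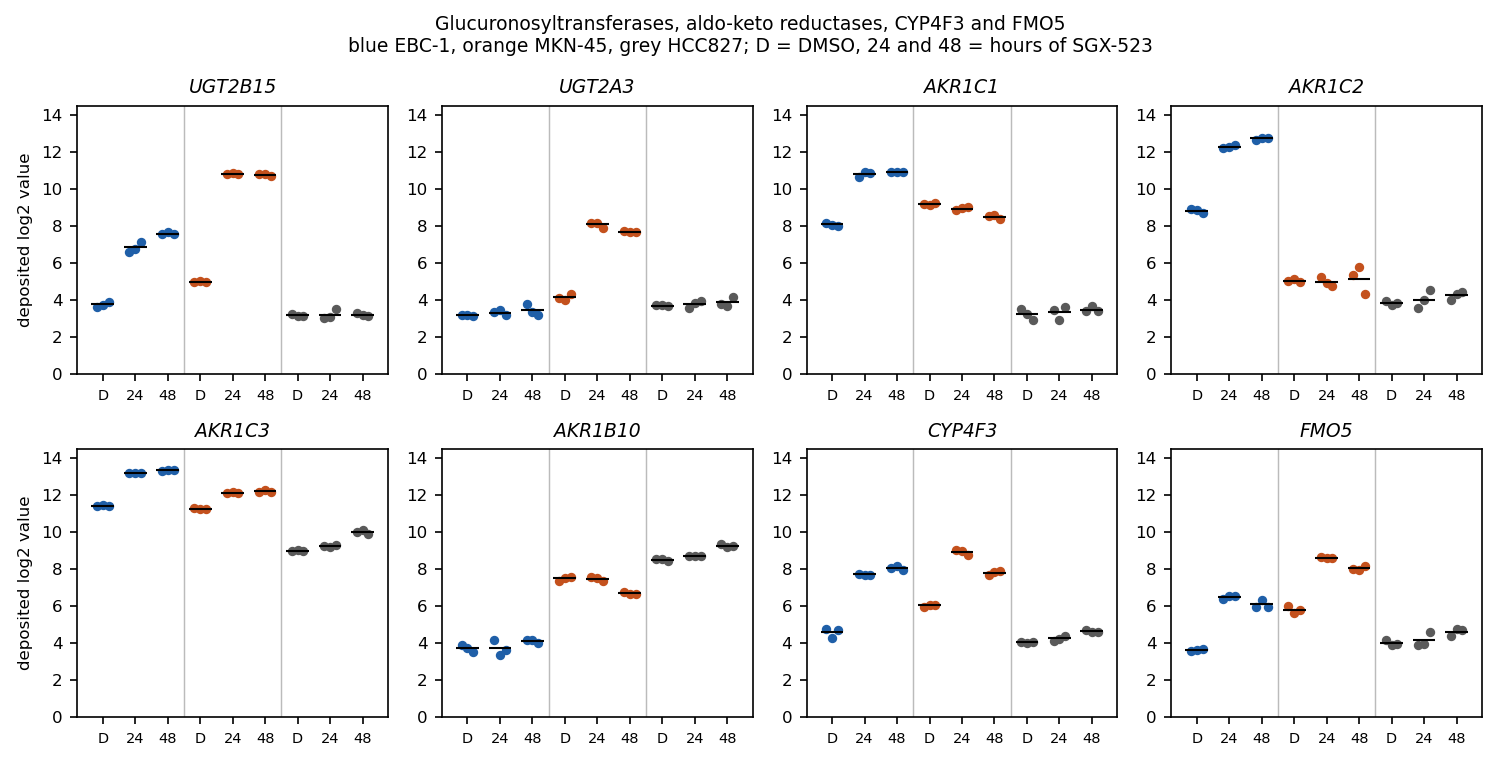
Deposited log2 value on each array for 2 glucuronosyltransferases, 4 aldo-keto reductases, CYP4F3 and FMO5, with a line at each mean of 3 arrays. UGT2B15, CYP4F3 and FMO5 are higher on treated arrays of EBC-1 and MKN-45, AKR1C1 and AKR1C2 are higher in EBC-1, and AKR1C3 is higher at 48 h in all 3 lines.

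Of 20 P450s known mainly for xenobiotics, 11 were tested. In EBC-1 5 rose and 1 fell at each time, beside 31.2% and 28.1% of all genes at 24 h and 32.8% and 28.9% at 48 h. In MKN-45 3 rose and 2 fell at 24 h (33.4% and 26.9% of all genes). There 4 rose and 3 fell at 48 h, near the 36.4% and 26.2% of all genes. CYP1A1, which oxidises polycyclic aromatic compounds, read 4.41, 4.66 and 4.21 in MKN-45 DMSO, 8.47, 7.63 and 7.69 at 24 h and 7.37, 7.44 and 7.43 at 48 h. All treated arrays were above DMSO, by 3.51 ± 0.16 at 24 h and 2.99 ± 0.16 at 48 h (adjusted p 1.24e-15 and 2.33e-14), and its other kept probe set gave 0.985 and 0.805, also called. EBC-1 read 5.03, 4.90 and 4.91 in DMSO, 4.57, 4.71 and 4.499 at 24 h and 5.04, 4.86 and 4.57 at 48 h. The 24 h arrays were all below DMSO (-0.36 ± 0.16, adjusted p 0.0586), a difference called in 5 of 17 alternatives (adjusted p 0.021 to 0.58; 0.0365 without the HCC827 array that stood apart), and the 48 h arrays overlapped DMSO. HCC827 rose by 0.76 ± 0.16 (adjusted p 0.00107).

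CYP1B1, an AHR target that also oxidises oestrogens, read 9.78, 9.76 and 9.82 in EBC-1 DMSO, 11.56, 11.53 and 11.52 at 24 h and 11.87, 11.93 and 11.99 at 48 h. The rise at 48 h was 2.14 ± 0.10 (adjusted p 1.8e-15). In MKN-45 the difference was 0.20 ± 0.10 at 24 h and -0.29 ± 0.10 at 48 h, with adjusted p of 0.0971 and 0.0153. The 24 h difference was called in 5 of 17 alternatives (adjusted p 0.00782 to 0.56; 0.00882 without the HCC827 array that stood apart). HCC827 read 9.33, 9.27 and 9.29 in DMSO and 10.48, 10.56 and 10.32 at 48 h, higher by 1.16 ± 0.10 (adjusted p 1.24e-08). Of its 5 probe sets, 4 were called higher in EBC-1 and 4 in HCC827 at 48 h. The MKN-45 call at 48 h ended without the first DMSO array (adjusted p 0.0707).

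CYP2S1, an extrahepatic P450 that acts on retinoids and xenobiotics, read 8.53, 8.66 and 8.46 in MKN-45 DMSO, 5.64, 5.47 and 5.37 at 24 h and 5.13, 5.37 and 5.23 at 48 h. This fall of 3.31 ± 0.11 (adjusted p 1.89e-18) was the deepest of any member, and its other probe set fell by less (-0.91). In EBC-1 it differed by -0.26 ± 0.11 at 48 h (adjusted p 0.0462), with overlapping arrays and the call lost in 9 of 17 alternatives (adjusted p 0.0175 to 0.176).

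CYP3A5, a member of the main drug-oxidising subfamily, moved in opposite directions. It read 10.59, 10.46 and 10.55 in EBC-1 DMSO and 11.88, 11.92 and 11.97 at 48 h, and 7.93, 7.58 and 7.60 in MKN-45 DMSO and 6.49, 6.32 and 5.98 at 48 h. Neither line overlapped: the changes were 1.40 ± 0.11 and -1.44 ± 0.11 (adjusted p 7.6e-11 and 4.59e-11). CYP3A7, the fetal liver form, read 4.84, 4.82 and 4.89 in EBC-1 DMSO, 6.17, 6.17 and 6.15 at 24 h and 6.78, 7.06 and 6.82 at 48 h, a rise of 2.04 ± 0.16 (adjusted p 5.19e-11). In MKN-45 the difference was -0.10 ± 0.16 (adjusted p 0.633). CYP3A4 was too dim to test, and signal shared among CYP3A probe sets was not tested. CYP2W1, a P450 of colon and some tumours, rose at 48 h by 1.14 ± 0.14 in EBC-1 (adjusted p 1.76e-07), and CYP2U1, a fatty acid hydroxylase, by 0.53 ± 0.12 in EBC-1 and 0.34 ± 0.12 in MKN-45. CYP2J2, an arachidonic acid epoxygenase, rose in MKN-45 at 48 h by 0.57 ± 0.19 (adjusted p 0.0096).

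The fatty acid P450s held 5 tested members of 13. CYP4F3, the leukotriene B4 hydroxylase, read 4.76, 4.27 and 4.74 in EBC-1 DMSO, 7.76, 7.71 and 7.71 at 24 h and 8.09, 8.18 and 7.98 at 48 h. In MKN-45 it read 5.97, 6.08 and 6.09 in DMSO, 9.02, 9.002 and 8.79 at 24 h and 7.72, 7.85 and 7.89 at 48 h. All treated arrays were higher, by 3.49 ± 0.11 and 1.77 ± 0.11 at 48 h (adjusted p 2.67e-19 and 1.94e-13). Its 4 probe sets spread from 0.29 to 3.49 in EBC-1 and 0.24 to 1.78 in MKN-45 at 48 h, with 3 and 2 of them called. CYP4F12 rose by 1.45 ± 0.18 in EBC-1 (adjusted p 2.02e-07), and CYP4F11 by 0.65 ± 0.19 in HCC827 (adjusted p 0.0162). CYP4F3 rose in HCC827 by 0.59 ± 0.11 (adjusted p 0.000196), a call that the mean of its probe sets ended (adjusted p 0.38). CYP4A11 and CYP4F8 were called nowhere.

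Sterol, steroid and vitamin D P450s held 5 tested members of 14. CYP39A1, an oxysterol hydroxylase of bile acid synthesis, rose by 0.84 ± 0.19 in EBC-1 and 0.67 ± 0.19 in MKN-45 at 48 h (adjusted p 0.000542 and 0.00433). CYP24A1, the enzyme that inactivates vitamin D, read 6.72, 6.72 and 6.63 in HCC827 DMSO, 6.74, 6.73 and 5.51 at 24 h and 7.52, 7.61 and 7.26 at 48 h. The 48 h arrays were all above DMSO, by 0.78 ± 0.22 (adjusted p 0.0106). That call ended when each line was fitted alone (adjusted p 0.139) and without the second 48 h array (adjusted p 0.0524), and it held without the 24 h array that stood apart (adjusted p 2.91e-05). CYP27B1, which activates vitamin D, fell in MKN-45 at 24 h by 0.42 ± 0.13 (adjusted p 0.00987). CYP27A1 and CYP46A1 were called nowhere. CYP20A1, of unknown substrate, differed in sign between the MET-addicted lines at 24 h (-0.43 ± 0.16 and 0.55 ± 0.16), and its probe sets were called in both directions in EBC-1.

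Flavin monooxygenases had 4 members and 3 tested, of which 2 rose in both MET-addicted lines. Of all genes, 21.4% were called higher in both lines at 48 h. FMO5, a Baeyer-Villiger type oxygenase, read 3.59, 3.63 and 3.72 in EBC-1 DMSO, 6.38, 6.56 and 6.54 at 24 h and 5.99, 6.34 and 5.98 at 48 h, and 5.99, 5.64 and 5.81, then 8.66, 8.62 and 8.63 and 7.99, 7.97 and 8.19 in MKN-45. Treated and DMSO arrays did not overlap, and the rises at 48 h were 2.46 ± 0.14 and 2.24 ± 0.14 (adjusted p 1.51e-13 and 1.03e-12). FMO4 rose by 1.00 ± 0.14 and 1.99 ± 0.14 (adjusted p 5.97e-07 and 3.29e-12). FMO5 also rose in HCC827 at 48 h by 0.62 ± 0.14 (adjusted p 0.0028), a call that ended when each line was fitted alone (adjusted p 0.0775) or with 64 added on the linear scale (adjusted p 0.0589). FMO1 was called nowhere.

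SULT2B1, which sulfonates cholesterol and other sterols, moved in opposite directions in the MET-addicted lines. It read 5.46, 5.38 and 5.57 in EBC-1 DMSO and 4.72, 4.53 and 4.13 at 48 h, all lower, and 4.83, 4.95 and 4.64 in MKN-45 DMSO and 5.48, 5.80 and 5.81 at 48 h, all higher. The changes were -1.01 ± 0.15 and 0.89 ± 0.15 (adjusted p 1.48e-06 and 9.58e-06). SULT1C2 fell in MKN-45 at 24 h by 0.70 ± 0.17 (adjusted p 0.00101). Its 3 kept probe sets ran from -0.698 to 0.17 there, and only 1 was called. At 48 h in MKN-45 SULT1C2 was not called, but its probe sets ran from -0.418 to 0.654 and 1 was called higher. SULT4A1 rose in MKN-45 at 48 h by 0.52 ± 0.15 (adjusted p 0.00485), and the other 6 of the 9 sulfotransferases were not tested.

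Of 16 aldehyde dehydrogenases outside ALDH1A, 13 were tested. In EBC-1 7 rose and 1 fell at 24 h (31.2% and 28.1% of all genes), and 5 rose and 4 fell at 48 h (32.8% and 28.9%). In MKN-45 2 rose and 6 fell at 24 h (33.4% and 26.9%), and 1 rose and 7 fell at 48 h (36.4% and 26.2%). ALDH2, the mitochondrial acetaldehyde dehydrogenase, read 7.47, 7.63 and 7.59 in EBC-1 DMSO and 8.64, 8.77 and 8.77 at 48 h. MKN-45 read 9.97, 10.10 and 10.04 in DMSO, 9.03, 9.05 and 9.07 at 24 h and 8.56, 8.54 and 8.53 at 48 h. So ALDH2 rose by 1.16 ± 0.10 in EBC-1 (adjusted p 2.9e-10) and fell by 1.49 ± 0.10 in MKN-45 (adjusted p 2.77e-12), and both probe sets were called so.

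ALDH18A1, which makes the proline precursor pyrroline carboxylate, also moved in opposite directions, by 1.28 ± 0.05 in EBC-1 and -0.66 ± 0.05 in MKN-45 (adjusted p 1.86e-17 and 8.64e-12). ALDH6A1, of valine and pyrimidine breakdown, changed by 1.19 ± 0.09, -0.35 ± 0.09 and 0.56 ± 0.09 in EBC-1, MKN-45 and HCC827, all called. ALDH3A1, which clears lipid and aromatic aldehydes, read 7.54, 7.47 and 7.55 in MKN-45 DMSO, 7.17, 7.03 and 7.14 at 24 h and 6.17, 5.98 and 6.004 at 48 h. It fell at 48 h by 1.47 ± 0.11 in MKN-45 and by 0.88 ± 0.11 in EBC-1 (adjusted p 7.38e-12 and 6.54e-08). Its small rise in EBC-1 at 24 h (0.26 ± 0.11, adjusted p 0.0393) was lost in 7 of 17 alternatives (adjusted p 0.000435 to 0.217). ALDH3B2, an aldehyde dehydrogenase of lipid droplets, rose in MKN-45 by 1.83 ± 0.18 (adjusted p 3.19e-09), and ALDH3B1 in EBC-1 by 1.246 ± 0.13 (adjusted p 6.09e-09). ALDH5A1, of GABA breakdown, rose in EBC-1 by 1.03 ± 0.20 (adjusted p 8.28e-05), although its other probe set gave -0.23. Without the HCC827 array that stood apart it was also called at 48 h in MKN-45 (0.34, adjusted p 0.000931) and HCC827 (0.26, adjusted p 0.0185), and ALDH2 in HCC827 (0.13, adjusted p 0.0454). ALDH4A1, of proline breakdown, changed by -0.27 ± 0.10 in EBC-1 at 48 h (adjusted p 0.0198), with overlapping arrays, and lost that call in 4 of 17 alternatives (adjusted p 0.000404 to 0.189). Of the smaller changes, ALDH3A2, which oxidises fatty aldehydes, was -0.64 ± 0.08 in EBC-1, and ALDH1B1, a mitochondrial relative of ALDH2, -0.59 ± 0.13 in MKN-45. ALDH7A1 of lysine breakdown was -0.29 ± 0.06 in EBC-1, -0.23 ± 0.06 in MKN-45 and 0.27 ± 0.06 in HCC827, and ALDH9A1 of carnitine synthesis -0.56 ± 0.09 in MKN-45, all called at 48 h. The 4 ALDH7A1 probe sets spread from -0.355 to 0.133 in EBC-1 (2 called), -0.228 to 0.0241 in MKN-45 (2 called) and -0.329 to 0.273 in HCC827 (1 called). ALDH1B1 itself was not called in EBC-1, but its other probe set was called lower there (-1.31 at 24 h and -1.43 at 48 h). ALDH16A1 was called in MKN-45 at 24 h (-0.45 ± 0.12).

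**Figure D4:**
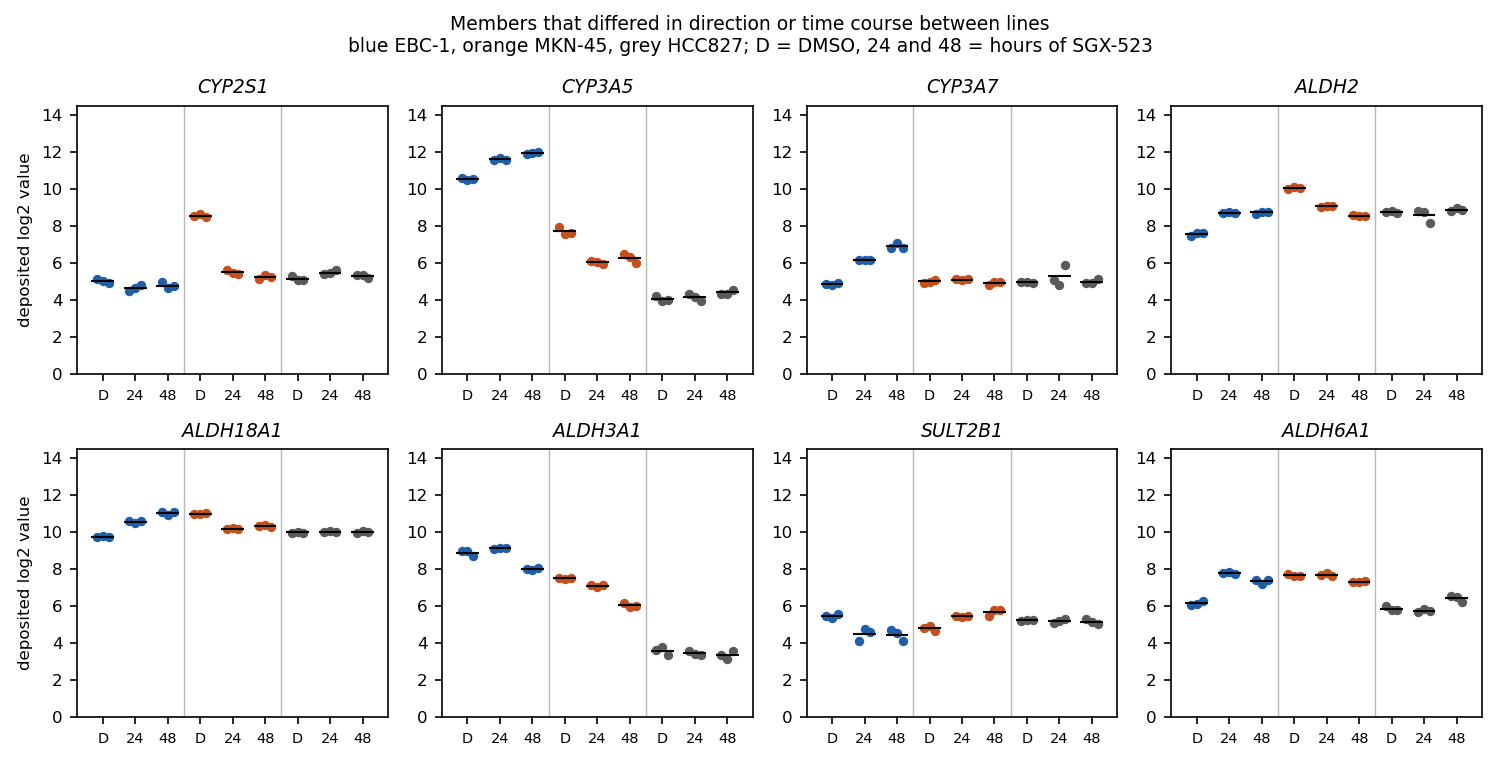
Deposited log2 value on each array for P450s, aldehyde dehydrogenases and SULT2B1, with a line at each mean of 3 arrays. CYP3A5, ALDH2 and ALDH18A1 are higher on treated EBC-1 arrays and lower on treated MKN-45 arrays, SULT2B1 is the reverse, and CYP2S1 is lower on all treated MKN-45 arrays.

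The lines that depend on MET were compared directly through the difference between their changes. At 48 h EBC-1 and MKN-45 both had 9 members higher (of 25 and 17 called higher) and 3 lower (of 6 and 15), and 9 members were called in opposite directions: AKR1B10, AKR1C1, ALDH18A1, ALDH1A3, ALDH2, ALDH6A1, CYP1B1, CYP3A5 and SULT2B1. Of these, AKR1B10 was below the array median on every EBC-1 array. As shares of the 58, both higher came to 15.5%, both lower to 5.17% and opposite to 15.5%, beside 21.4%, 17.5% and 6.88% of all genes. The EBC-1 change exceeded the MKN-45 change for 24 members and fell short for 13 at 48 h, beside 19.6% and 29.4% of all genes. At 24 h the counts were 20 and 11, beside 18.4% and 23.8%. Without the HCC827 array that stood apart these were 25 and 13 at 48 h (24.8% and 36.1% of all genes) and 22 and 11 at 24 h (23.7% and 30.6%). The largest differences toward EBC-1 at 48 h were in AKR1C2 (3.80 ± 0.33), AKR1C1 (3.51 ± 0.19) and CYP2S1 (3.05 ± 0.15), and toward MKN-45 in UGT2A3 (-3.28 ± 0.20), CYP1A1 (-3.11 ± 0.22) and UGT2B15 (-1.95 ± 0.16). FMO5 differed by 0.22 ± 0.20 between the lines (95% interval -0.20 to 0.64, adjusted p 0.395).

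**Figure D5:**
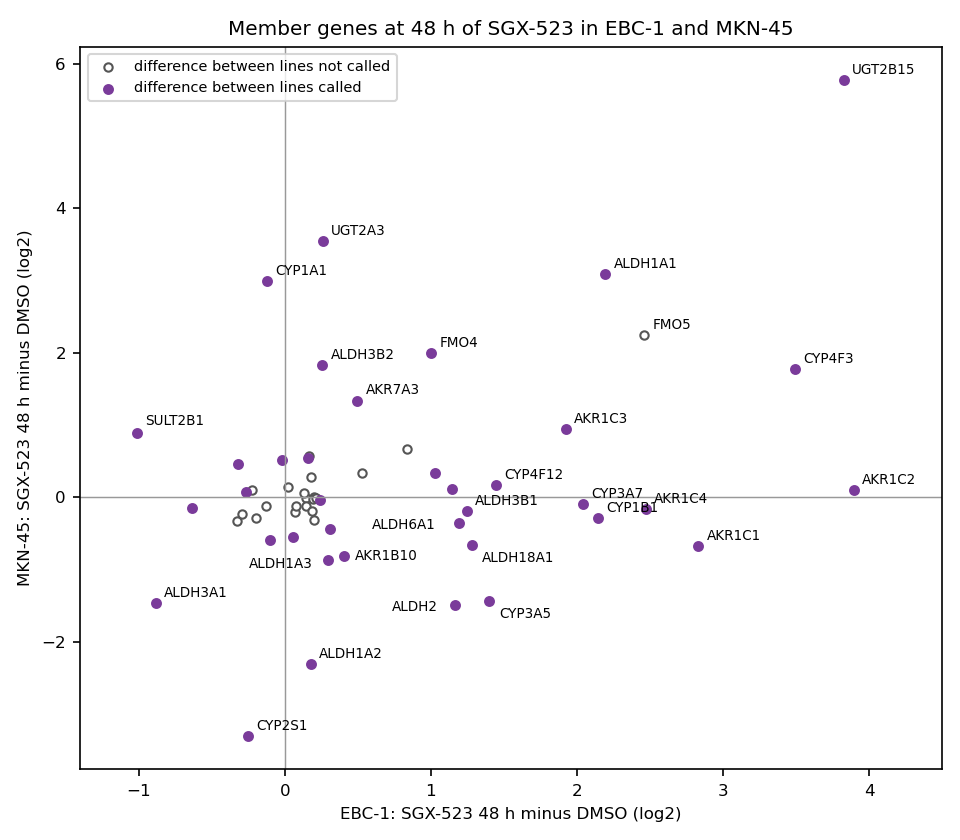
Each tested member by its log2 difference at 48 h of SGX-523 in EBC-1 (horizontal) and in MKN-45 (vertical); filled points are members whose 2 differences were themselves called different. UGT2B15, ALDH1A1, FMO5 and CYP4F3 lie in the upper right, the AKR1C genes along the right, and ALDH2, CYP3A5 and ALDH18A1 in the lower right.

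Against the HCC827 change at 48 h, the EBC-1 change was greater for 22 members and smaller for 9 (24.5% and 24.2% of all genes), and the MKN-45 change greater for 13 and smaller for 17 (29.6% and 21.5%). Without the array that stood apart these were 24 and 11 (30.5% and 28.9% of all genes) and 14 and 19 (35.9% and 26.2%). UGT2B15 differed by 3.78 ± 0.16 and 5.73 ± 0.16, and ALDH1A1 by 2.22 ± 0.13 and 3.12 ± 0.13 (adjusted p 5.04e-13 and 7.22e-16). CYP26A1 and CYP24A1 changed less in EBC-1 than in HCC827, by -0.89 ± 0.34 and -0.75 ± 0.31 (adjusted p 0.0332 and 0.0446). CYP1B1 rose less in MKN-45 than in HCC827 (-1.44 ± 0.14, adjusted p 5.9e-09).

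Between 24 h and 48 h of SGX-523 most members of EBC-1 and MKN-45 were not called. In EBC-1, 6 were higher and 5 lower at 48 h (4.99% and 6.09% of all genes), and 11 and 8 without the HCC827 array that stood apart (10.6% and 13.4%). UGT2B15 rose further by 0.75 ± 0.12 and CYP3A7 by 0.72 ± 0.16, and ALDH3A1 fell by 1.14 ± 0.11 (adjusted p 6.85e-05, 0.00345 and 3.02e-08). In MKN-45, 3 were higher and 16 lower (14.9% and 9.34% of all genes), and 3 and 19 without that array (24.8% and 14.9%). CYP4F3 fell back by 1.12 ± 0.11, ALDH3A1 fell by 1.06 ± 0.11 and AKR1B10 by 0.79 ± 0.13 (adjusted p 2.1e-08, 4.63e-08 and 7.67e-05).

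In HCC827 the members called between the times were higher at 48 h. From 24 h to 48 h, 14 members were higher and 0 lower (15.8% and 10.7% of all genes, a split that quantile normalization turned to 1784 higher and 1877 lower genes and leaving out the third 24 h array to 1744 and 1821), and 14 and 2 without the third 24 h array, which removes an array of this comparison. The largest were CYP1B1 (1.23 ± 0.10), CYP24A1 (1.14 ± 0.22), CYP26A1 (1.07 ± 0.24), CYP1A1 (0.87 ± 0.16) and AKR1C3 (0.75 ± 0.04). Without that array CYP24A1 gave 0.73, CYP26A1 0.74 and CYP1B1 1.06, still called (adjusted p 0.000408, 0.0068 and 4.03e-12). CYP24A1 moved by over 1.5 times between these fits. CYP2R1, a vitamin D 25-hydroxylase, was the member that fell in HCC827 at 48 h, by 0.46 ± 0.10 against DMSO (adjusted p 0.00113).

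Under DMSO the share of members called between the MET-addicted lines was near that of all genes. EBC-1 was above MKN-45 for 16 members (27.6% of the 58) and below for 23 (39.7%), beside 33.6% and 34% of all genes. Without the HCC827 array that stood apart these counts were 17 and 25, beside 37.3% and 37.7%. In the main fit SULT4A1, UGT2A3 and UGT2B15 were called with every array of both DMSO groups below its array median. Members called with at least a 2-fold difference came to 46.6%, beside 24.7% of all genes. Higher in EBC-1 were AKR1C2 by 3.78 ± 0.24, CYP2W1 by 2.87 ± 0.14, CYP3A5 by 2.83 ± 0.11 and ALDH1A3 by 2.49 ± 0.08. Lower in EBC-1 were SULT1C2 (-5.11 ± 0.17), AKR1B10 (-3.78 ± 0.13), CYP2S1 (-3.52 ± 0.11) and ALDH1A2 (-3.41 ± 0.16), with adjusted p of 1.12e-18, 2.2e-18, 2.42e-19 and 6.62e-16. In EBC-1 DMSO SULT1C2 read 2.75, 2.70 and 2.97, AKR1B10 3.93, 3.73 and 3.52 and ALDH1A2 2.51, 2.43 and 2.37, all below the array median, so the size of these differences depends on signals near the floor.

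Genes that feed or read these pathways moved beside the members. Of 21 tested retinoid handling genes, 12 rose and 2 fell in EBC-1 and 11 rose and 4 fell in MKN-45 at 48 h, with medians of 0.317 and 0.26 beside 0.0667 and 0.056 over all genes. Here and in the lists that follow, 32.8% of all genes rose and 28.9% fell in EBC-1 at 48 h, and 36.4% rose and 26.2% fell in MKN-45. DHRS3, a retinal reductase induced by retinoic acid, rose by 1.22, 2.08 and 0.72 in EBC-1, MKN-45 and HCC827. RARRES1, a retinoic acid responsive gene, rose by 4.11 and 1.18 in the MET-addicted lines, and ADH1C, a retinol and alcohol dehydrogenase, by 1.82 and 2.34. FABP5, a fatty acid and retinoic acid carrier, changed by -3.06, -2.50 and -0.45, all called. TGM2, another retinoic acid responsive gene, changed by -2.75 in EBC-1 and 0.57 in MKN-45, both called.

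Among 15 tested receptors and partners of xenobiotic metabolism, 10 rose and 2 fell in EBC-1 and 5 rose and 7 fell in MKN-45 at 48 h (medians 0.374 and -0.156). AHR itself changed by 0.38 in EBC-1, -1.96 in MKN-45 and 0.42 in HCC827, all called. AHRR, the AHR repressor and itself an AHR target, rose by 1.868, 1.93 and 1.14. TIPARP, another AHR target, changed by 0.45 in EBC-1 and -0.65 in MKN-45, both called. NR0B2, the small heterodimer partner that represses bile acid synthesis, changed by -2.23 and -0.37, and PPARA by 1.82 and 0.53.

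Of 22 tested enzymes of conjugation and reduction outside the members, 10 rose and 5 fell in EBC-1 and 9 rose and 9 fell in MKN-45 at 48 h. UGDH, which makes the UDP-glucuronate that glucuronosyltransferases use, rose by 0.71 and 0.96. PAPSS2, which makes the sulfate donor, rose by 2.56 in MKN-45. NAT2 rose by 2.84 in EBC-1 and NAT1 by 2.88 in MKN-45, both arylamine acetyltransferases, and NNMT changed by -2.99 in MKN-45. Of 12 tested NRF2 targets outside the members, 7 rose and 2 fell in EBC-1 and 2 rose and 7 fell in MKN-45 at 48 h (medians 0.212 and -0.407). SLC7A11 fell in both lines (by 1.17 and 1.83), GCLC rose in both (by 1.51 and 1.09), and ABCC2 changed by 1.81 and -1.29.

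Markers of other cell types were read beside these changes. The summed level of 5 hepatocyte markers went from 19.15 to 21.48 in EBC-1, from 19.15 to 21.56 in MKN-45 between DMSO and 48 h, and from 30.89 to 33.06 in HCC827, with ALB at or below the array median on all 27 arrays. The largest parts of these rises were SERPINA1 in EBC-1 (3.07 to 4.11, below the array median), TTR in MKN-45 (4.85 to 6.99) and FGB in HCC827 (8.56 to 10.16). The 5 fibroblast markers went from 24.97 to 28.24 in EBC-1, of which LUM went from 10.04 to 12.06, with COL1A1, COL3A1 and DCN never above the array median. The 5 gastric and intestinal markers with a probe set went from 34.41 to 33.31 in MKN-45, a sum in which CDX2 went from 6.19 to 8.66 and TFF1 from 10.41 to 6.65. In EBC-1 they went from 25.84 to 27.79, with CDX2 from 6.88 to 9.93 and VIL1 from 7.95 to 6.27. Of the 3 squamous markers with a probe set, SOX2 went from 7.998 to 11.06 in MKN-45. KRT5 went the other way there, from 5.56 to 4.53, and DSG3 stayed below the array median (3.21 and 3.14). The 4 leukocyte markers went from 17.6 in DMSO to 19.29 at 24 h and 18.48 at 48 h in EBC-1, with PTPRC and CD3E never above the median. LYZ went from 3.83 in DMSO to 6.04 at 24 h and 5.699 at 48 h there. It was above the median on all treated EBC-1 arrays and on no EBC-1 DMSO array. CD14 was above it on all EBC-1 arrays and went the other way, from 7.11 to 6.49 and 5.72. The part of these cell type markers in the members' changes was not tested.

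The tested members are not all members. The 47 left out did not reach their array's median on 3 arrays, and include CYP3A4, CYP2E1, CYP19A1, UGT2B7, ALDH1L2 and SULT2A1. UGT1A6, UGT2B17 and SULT1A1 had no probe set of their own symbol alone and are not members. Many values of the tested members were below the array median, near the floor of the arrays, and no detection calls were used here. A member could pass the filter only through the groups where it was high, as UGT2B15, UGT2A3 and ALDH1A2 did. Of the calls against DMSO at 48 h, AKR1B10 in EBC-1, CYP2J2 in MKN-45 and CYP3A5, CYP4F11, CYP4F3 and FMO5 in HCC827 had every array of both groups below the median. Of the 58, 10 were called in none of the 6 comparisons with DMSO: AKR1E2, CYP1A2, CYP26B1, CYP27A1, CYP2F1, CYP46A1, CYP4A11, CYP4F8, FMO1 and UGT3A1.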

How the data were processed

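RNA from 27 samples (3 cell lines, 3 treatments, 3 arrays each) was labelled as biotin cRNA and read on Affymetrix arrays, per the labels' protocols. The values deposited by the authors are log2 signals per probe set; MAS5 is named in the submitters' processing notes, and its settings are not given in the sources used here. They were used as deposited. Of 49395 probe sets, 102 control probe sets and those with several genes (1832) or none (2473) were left out. A probe set was kept when it reached its array's median on at least 3 arrays, and each gene took its kept probe set of highest mean. The test was that of limma (version 3.58.1, under R 4.3.3): linear models by lmFit, moderated by eBayes along an intensity trend (9 group means, 18 residual degrees of freedom; Benjamini-Hochberg adjustment over 12386 genes in each comparison; adjusted p threshold 0.05). For single values, 3 against 3 arrays cannot go below an exact two-sided p of 0.1. The script was checked on simulated data.

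Samples were grouped by their labels. The labels call the arrays biological replicates and do not say how cultures were separated, so p-values measure the spread between these samples. Members and gene lists were chosen with earlier results of these data known. Genes were named by a rule (called, at least 2-fold, groups apart, the higher mean above the array median, at most 12 in each direction) and from a fixed list of enzymes; other members with small changes were named after their values were seen so that each role was accounted for. Alternatives were quantile normalization, centring, other filters and probe set rules, 64 added on the linear scale, array weights, no trend, separate fits per line, a 2-fold rule, a replicate block and leaving out each array. The number of arrays limits the precision.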

Additional observations from a re-analysis of the deposited data

Results flagged for a closer look

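The response to 48 h of SGX-523 differed between EBC-1 and MKN-45 for 37 of the 58 tested members (24 toward EBC-1 and 13 toward MKN-45). As shares of the 58 these were 41.4% and 22.4%, beside 19.6% and 29.4% of all genes. The 6 largest differences in each direction are given here. The test was a direct one of the difference in limma (the EBC-1 change minus the MKN-45 change, log2, 3 arrays in each of 4 groups). Toward EBC-1 lay AKR1C2 (3.80, adjusted p 9.7e-10), AKR1C1 (3.51, adjusted p 2.28e-13), CYP2S1 (3.05, adjusted p 4.37e-14), CYP3A5 (2.83, adjusted p 3.46e-13), ALDH2 (2.65, adjusted p 1.51e-13) and AKR1C4 (2.64, adjusted p 1.17e-09). Toward MKN-45 lay UGT2A3 (-3.28, adjusted p 1.75e-12), CYP1A1 (-3.11, adjusted p 2.85e-11), UGT2B15 (-1.95, adjusted p 4.58e-10), SULT2B1 (-1.90, adjusted p 3.76e-08), ALDH3B2 (-1.57, adjusted p 1.59e-05) and FMO4 (-0.99, adjusted p 0.000138). AKR1C1, CYP3A5, ALDH2 and SULT2B1 were called in opposite directions in the lines, and UGT2B15 and FMO4 rose in both. CYP2S1 was called lower in both, but its EBC-1 difference was small (-0.255) and 9 of 17 alternatives lost that call.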

How the results depend on the processing

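With a 2-fold rule added, members called numbered 17 (EBC-1 24 h), 20 (EBC-1 48 h), 13 (MKN-45 24 h), 14 (MKN-45 48 h), 0 (HCC827 24 h) and 2 (HCC827 48 h) against DMSO; 1, 2 and 3 for 48 h against 24 h in EBC-1, MKN-45 and HCC827; and 22, 12 and 18 for the differences at 48 h of EBC-1 from MKN-45, EBC-1 from HCC827 and MKN-45 from HCC827. Array weights, whose estimation stopped before it converged, gave 20 for EBC-1 48 h against 24 h, 0 for HCC827 at 24 h and 26 for HCC827 at 48 h, and separate fits per line 18, 0 and 9. HCC827 at 24 h also had 0 with the mean of probe sets, no filter, no trend and the replicate block. Leaving out 1 array gave 27 to 32 and 29 to 33 in EBC-1 at 24 h and 48 h, 28 to 31 and 31 to 37 in MKN-45, and 0 to 10 and 12 to 20 in HCC827. It gave 8 to 19, 14 to 22 and 11 to 16 between times in EBC-1, MKN-45 and HCC827, 29 to 33 and 32 to 38 for EBC-1 against MKN-45 responses at 24 h and 48 h, 25 to 35 and 28 to 33 for EBC-1 and MKN-45 against HCC827, and 38 to 42 between the DMSO groups. Same-numbered replicates had a median residual correlation of 0.0471, 0.033 and 0.0449 in EBC-1, MKN-45 and HCC827. Arrays with different numbers had 0.00338, -0.0245 and -0.0219. Such small values cannot settle whether the numbers pair the arrays. With the replicate block 188 named results kept their side of the threshold, 3 lost it and 1 gained it. The other alternatives that kept every array gave each of the 192 named gene and comparison pairs again under each setting; of these repeats 1640 had the same call and direction, 27 lost and 19 gained a call, and no result reversed. The causes were not tested. Signal near the array median limits the dim members.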

Other observations

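Among the 47 members too dim for the main test, fitting all genes without the filter called 1 higher and 2 lower in EBC-1 at 24 h, 4 and 0 at 48 h, 7 and 0 in MKN-45 at 24 h, 5 and 1 at 48 h, 0 and 0 in HCC827 at 24 h, and 1 and 0 at 48 h (limma, adjusted p). As shares of the 47 the MKN-45 counts were 14.9% higher and 0% lower, then 10.6% and 2.13%, beside 5.74% and 2.98%, then 5.71% and 3.67%, of the 5746 genes that the filter left out. The EBC-1 counts were 2.13% higher and 4.26% lower, then 8.51% and 0%, beside 3.93% and 1.64%, then 6.89% and 1.32%. In HCC827 at 48 h 2.13% of the 47 were higher, beside 0.766% higher and 0.679% lower. In MKN-45 at 48 h CYP2E1, the ethanol-oxidising P450, was higher by 1.81 (adjusted p 1.37e-09) and UGT2B7, a morphine and steroid glucuronosyltransferase, by 1.00 (adjusted p 1.75e-06). CYP3A4, the main drug-oxidising P450 of liver, was higher by 0.65 in EBC-1 at 48 h (adjusted p 0.000108). CYP2E1, UGT2B7 and CYP3A4 did not reach their array's median on 3 arrays, so these values describe signal near the floor of the arrays. Whether the CYP3A4 probe set shared signal with CYP3A5 and CYP3A7, which also rose in EBC-1, was not tested.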
